A study of Mus musculus with 12 samples.

Results

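Interferon-stimulated genes are the genes that cells switch on after sensing interferon, and 43 of them were chosen by symbol for this description, of which 41 had a row in the deposited table of 21930 genes. Mx1 and Mx2 are not analysed here. The 41 genes were followed over 12 RNA-seq libraries from male wild-type C57BL/6J mice, with 3 libraries in each of 4 groups, and with attention to how far the libraries of mice fed freely and injected with PBS differed among themselves. AL + PBS mice ate ad libitum and received PBS, and AL + NaIO3 mice ate ad libitum and received a single intraperitoneal dose of 25 mg/kg sodium iodate, an oxidant that damages the retinal pigment epithelium (RPE). IF + PBS and IF + NaIO3 mice received the same injections but had been fasted on alternate days for 12 weeks, starting at 8 weeks of age, and every group was kept on its diet until tissue was taken 7 days after injection. As a model, a single systemic oxidant dose stands for a disease that develops slowly in people. The sample labels name an RPE, choroid and sclera complex, while the methods of the study name eye cups.

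Interferons are secreted proteins that warn neighbouring cells of infection or damage. Type I and type III interferons act through Janus kinases to assemble a complex, with STAT2 and IRF9 in it, that binds the interferon-stimulated response element (ISRE), whereas interferon gamma acts through the gamma-activated site (GAS) and through IRF1. The induced genes include blockers of viral translation, RNA and DNA sensors, large GTPases that attack intracellular microbes, and the transcription factors that sustain the response. In the retina and RPE these genes are generally low at rest, and microglia and infiltrating leukocytes are among the cells that express them when activated.

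The libraries held between 26364665 and 43046950 counts on genes. Values below are CPM, the share of a library's counts that fall on a gene, scaled by trimmed-mean (TMM) factors, which lay between 0.935 and 1.123, so a gene at 3 counts, the floor used here, has between 0.0708 and 0.107 CPM. The defining RPE genes were present, with a summed level between 1012 and 2659 CPM over the 12 libraries, but the 10 photoreceptor markers summed to between 18557 and 59248 CPM, so retinal RNA was a large part of the material. AL + NaIO3 replicate 3 stood apart, with 1300 CPM of choroid and sclera stroma markers against 72.6 to 210 CPM in the other 11 libraries, and AL + NaIO3 replicate 2 held 491 CPM of cornea and conjunctiva markers against at most 103 CPM elsewhere. AL + PBS replicate 2 held 361 CPM of lens markers against 40.2 to 102 CPM in the other 11 libraries. Some of the values below are also given without AL + NaIO3 replicate 3. In bulk tissue, more cells of a type and more RNA per cell cannot be told apart.

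Promoter sequence was taken from RefSeq (GRCm38.p6) in windows from 250 bases before to 50 bases after each annotated start, and 33 of the 41 genes matched. The core of the ISRE, GAAANNGAA or TTCNNTTTC on the other strand, occurred in 22 of these 33 genes, which is 59.5% of their 37 windows against 8.56% of 32851 windows of all genes. At least 2 copies, overlapping ones included, were found in 32.4% of the members' windows and 0.624% of all windows. The GAS, TTCNNNGAA on either strand, occurred in 9 of the 33 genes, or 24.3% of windows against 8.30%. A match is a description of letters and not evidence of binding. The stretches below come from some of the genes described later, and only from windows that held an ISRE core before the start. Oasl1 and Oasl2, also described later, had neither an ISRE core nor a GAS in their windows. Capitals mark the ISRE cores, which share letters where they overlap, and each stretch reads 5′ to 3′ along the gene's own strand.

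Ifit3, plus strand, chr19:34583362-34583447: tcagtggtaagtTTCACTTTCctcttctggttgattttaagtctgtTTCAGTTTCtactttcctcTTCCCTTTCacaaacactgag
Ifit3b, plus strand, chr19:34607758-34607843: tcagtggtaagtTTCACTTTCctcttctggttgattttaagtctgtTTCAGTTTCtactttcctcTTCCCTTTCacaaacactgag
Ifit1, plus strand, chr19:34640768-34640825: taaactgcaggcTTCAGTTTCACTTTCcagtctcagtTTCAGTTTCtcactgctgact
Isg15, minus strand, chr4:156200864-156200908: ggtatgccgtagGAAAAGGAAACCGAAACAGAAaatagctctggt
Gbp3, plus strand, chr3:142559988-142560026: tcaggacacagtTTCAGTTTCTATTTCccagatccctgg
Gbp2, plus strand, chr3:142620593-142620625: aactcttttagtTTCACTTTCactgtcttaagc
Oas1a, minus strand, chr5:120907526-120907557: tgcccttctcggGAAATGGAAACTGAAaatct

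The stretches of Ifit3 and Ifit3b were identical over their 86 bases. These neighbouring copies also resemble each other within the gene, so counting could have divided reads between them and their separate levels are uncertain. Isg15 and Ifit1 each had 3 ISRE cores, Gbp3 and Oas1a had 2, and Gbp2 had 1. Oas1a also had a GAS in its window, as did Irf1, whose windows held no ISRE core.

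The question of the first comparison was what sodium iodate did in freely fed mice. Compared with AL + PBS, 40 of the 41 genes had a higher mean in AL + NaIO3 and only Trim25 did not, with a median log2 fold change of 1.06 (2.09-fold) against 0.014 over the 15612 genes tested. The smallest adjusted p was 0.0968, so 0 of 41 genes met the criteria for a call, which were an adjusted p below 0.05 together with a 1.5-fold difference or more (edgeR quasi-likelihood test, Benjamini-Hochberg adjustment), where 0.0769% of all tested genes were called. At an unadjusted p under 0.05, 25 genes were higher and 0 were lower, against 7.51% of all tested genes that were higher. The groups did not overlap for 20 genes, all higher in AL + NaIO3, compared with 9.8% of all tested genes. DESeq2 on the same 6 libraries called 13 of the 41, all higher, where it called 2.63% of all genes, and a fit of the 12 libraries together in edgeR called 6, all higher, where it called 1.11%.

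The second comparison asked how fasting altered the state after sodium iodate. All 41 genes had a lower mean in IF + NaIO3 than in AL + NaIO3, with a median log2 fold change of -1.46 against -0.013 over the 15648 genes tested, and 38 of them were at least 1.5-fold lower. Ifit3 fell and was the 1 gene called, where 0.0383% of all tested genes were called. At an unadjusted p under 0.05, 35 genes were lower and 0 were higher, against 8.22% of all tested genes that were lower. The groups did not overlap for 37 genes, all lower in IF + NaIO3, compared with 10.2% of all tested genes. DESeq2 called 33 of the 41, all lower, where it called 3.05% of all genes, and the fit of the 12 libraries together called 14, all lower, where it called 1.19%. Both comparisons use the same AL + NaIO3 libraries, so their values are not independent of each other.

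**Figure D1:**
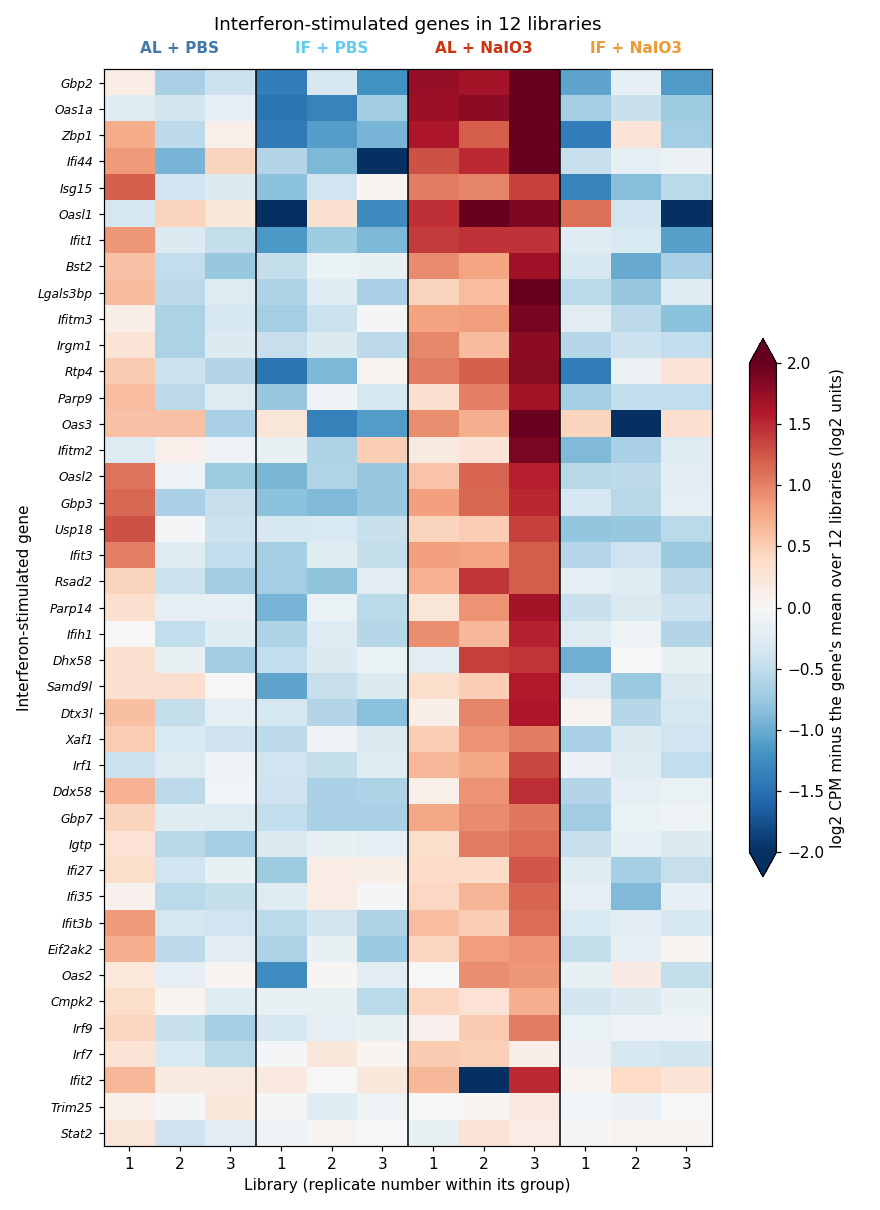
Level of the 41 interferon-stimulated genes (rows, ordered by their change in IF + NaIO3 against AL + NaIO3) in each of 12 libraries (columns, 3 per group), as log2 CPM minus the gene's mean over the libraries, with the colour scale limited at 2 log2 units. Red cells fill the AL + NaIO3 columns and also much of the first AL + PBS column, and the 6 IF columns are mostly blue or pale.

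The IFIT proteins, which bind foreign RNA and block its translation, and ISG15, a ubiquitin-like modifier, form with the ISG15 protease USP18 a group of 6 genes. In IF + NaIO3 against AL + NaIO3, 5 of the 6 had an unadjusted p under 0.05, all lower, with log2 fold changes between -2.05 and -0.33 over the group. In AL + NaIO3 against AL + PBS only Ifit1 passed that level, and the range was 0.22 to 1.28.

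Ifit3, which lies at chr19:34583531-34588731, had 50.5, 49.7 and 66.1 CPM in AL + NaIO3 and 19.3, 21.5 and 17.2 CPM in IF + NaIO3. In AL + PBS it had 57.7, 24.0 and 20.4 CPM, and in IF + PBS 18.0, 24.2 and 20.4 CPM. Ifit3 was thus at a common low level in 8 libraries and at a high level in the 3 AL + NaIO3 libraries and 1 of the AL + PBS libraries. Its log2 fold change in IF + NaIO3 against AL + NaIO3 was -1.53 (SE 0.16, 2.88-fold lower, edgeR adjusted p = 0.0340), with no overlap between the groups. That call was lost without any 1 of the IF + NaIO3 libraries (adjusted p between 0.203 and 0.260), without AL + NaIO3 replicate 1 (0.0551) or replicate 2 (0.0835), and with library totals in place of TMM (0.0546), while the log2 fold change stayed between -1.66 and -1.44 in these fits. It was lost as well when the 12 libraries were fitted together without AL + NaIO3 replicate 3 (-1.38, adjusted p = 0.0715), but not when the 6 libraries were fitted without it (-1.38, adjusted p = 0.00519). In AL + NaIO3 against AL + PBS it was 0.71 (SE 0.37, adjusted p = 0.554), since the groups overlapped through the first AL + PBS library.

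Ifit1 had 24.7, 25.6 and 25.7 CPM in AL + NaIO3, the tightest AL + NaIO3 values of the 41 genes, and 7.88, 7.60 and 4.37 CPM in IF + NaIO3. Its log2 fold change between them was -1.94 (SE 0.25, adjusted p = 0.0614). Isg15 had 7.09, 6.82 and 8.95 CPM in AL + NaIO3 and 1.32, 1.87 and 2.34 CPM in IF + NaIO3, and in AL + PBS it had 7.92, 2.62 and 2.82 CPM. For both genes the AL + NaIO3 libraries lay above all 3 IF + NaIO3 libraries, but for Isg15 the first AL + PBS library lay within the AL + NaIO3 range. Ifit2 is named because of a value noticed in the data: AL + NaIO3 replicate 2 had 0.568 CPM of Ifit2, against 12.6 to 35.2 CPM in the other 11 libraries, and this library held the neighbouring Ifit genes at levels like those of replicate 1. By the deposited FPKM the gap was smaller, with 0.705 FPKM of Ifit2 in that library against 2.68 to 8.69 FPKM in the other 11.

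The genes of the 2′,5′-oligoadenylate synthetase family and Eif2ak2, which encodes the kinase PKR, make a group of 6. The family is named for enzymes that activate RNase L on double-stranded RNA, an activity that not every member has. Against AL + PBS, log2 fold changes in AL + NaIO3 lay between 0.64 and 2.41 and the groups did not overlap for 3 of the 6. Against AL + NaIO3, those in IF + NaIO3 lay between -2.79 and -0.82 and did not overlap for 5 of the 6. In edgeR with the 6 libraries of each comparison and no replicate block none of them was called, with the block Oasl2 was called as lower in the second comparison, and DESeq2 called Oas1a and Oasl1 as higher in the first comparison and Oas1a, Oasl2 and Eif2ak2 as lower in the second, and the edgeR fit of 12 libraries together called Oas1a in both.

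Oas1a, at chr5:120896256-120907521, had 3.37, 3.59 and 6.18 CPM in AL + NaIO3. It had 0.834, 0.756 and 0.884 CPM in AL + PBS, 0.320, 0.358 and 0.589 CPM in IF + PBS, and 0.604, 0.716 and 0.586 CPM in IF + NaIO3. Every AL + NaIO3 library was above all 9 others, and the 3 AL + PBS libraries were close together. The log2 fold change was 2.41 (SE 0.39, 5.33-fold, adjusted p = 0.109) in AL + NaIO3 against AL + PBS and -2.79 (SE 0.41, 6.89-fold lower, adjusted p = 0.0949) in IF + NaIO3 against AL + NaIO3. Without AL + NaIO3 replicate 3 the second value was -2.45 and passed the threshold (adjusted p = 0.0480).

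Oasl1, an inhibitor of IRF7 translation, was among the lowest of the 41, with 1.16, 2.20 and 1.56 CPM in AL + NaIO3 and 0.289, 0.543 and 0.459 CPM in AL + PBS. In IF + PBS it had 0, 0.488 and 0.124 CPM, and in IF + NaIO3 0.892, 0.275 and 0 CPM. The AL + NaIO3 libraries did not overlap any other group, at a log2 fold change of 1.92 (SE 0.49, adjusted p = 0.276) against AL + PBS. Oasl2 followed Ifit3 more closely than Oas1a, with 25.04, 37.9 and 49.3 CPM in AL + NaIO3, 11.4, 11.7 and 14.5 CPM in IF + NaIO3, 8.87, 11.1 and 9.89 CPM in IF + PBS, and 35.7, 15.7 and 10.3 CPM in AL + PBS. Its first AL + PBS library lay within the AL + NaIO3 range, so that the log2 fold change against AL + PBS was 0.87 (SE 0.45, adjusted p = 0.548), while in IF + NaIO3 against AL + NaIO3 it was -1.59 (SE 0.26, adjusted p = 0.104).

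The interferon-inducible GTPases, which coat and break the vacuoles of intracellular microbes, are represented by the guanylate-binding proteins Gbp2, Gbp3 and Gbp7 and the immunity-related GTPases Igtp and Irgm1. For all 5 the AL + NaIO3 libraries lay above the IF + NaIO3 libraries, with log2 fold changes between -2.91 and -1.21 and an unadjusted p under 0.05 for each. For 4 of the 5 they also lay above the AL + PBS libraries, with log2 fold changes between 0.92 and 2.46 over the group. Igtp overlaps Irgm2 in the annotation, so its reads may be shared.

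Gbp2, at chr3:142620602-142638008, had the largest change of the 41 genes in both comparisons. It had 21.4, 20.2 and 44.5 CPM in AL + NaIO3 against 7.03, 4.01 and 4.68 CPM in AL + PBS, 2.40, 5.05 and 2.70 CPM in IF + PBS, and 3.02, 5.59 and 2.86 CPM in IF + NaIO3. All 3 AL + NaIO3 libraries were far above the 9 others, which overlapped among themselves. The log2 fold change was 2.46 (SE 0.37, 5.51-fold, adjusted p = 0.0968) in AL + NaIO3 against AL + PBS and -2.91 (SE 0.41, 7.53-fold lower, adjusted p = 0.0806) in IF + NaIO3 against AL + NaIO3. Without AL + NaIO3 replicate 3 both passed the threshold, at 1.99 (adjusted p = 0.0132) and -2.45 (adjusted p = 0.0104).

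Gbp3, at chr3:142560026-142573209, behaved differently from its neighbour. It had 12.9, 16.3 and 21.0 CPM in AL + NaIO3 and 5.78, 4.93 and 6.44 CPM in IF + NaIO3, but 16.3, 4.63 and 5.31 CPM in AL + PBS and 4.10, 3.91 and 4.28 CPM in IF + PBS. The first AL + PBS library was inside the AL + NaIO3 range, and the other two were near the IF libraries. Its log2 fold change was -1.56 (SE 0.25, adjusted p = 0.104) in IF + NaIO3 against AL + NaIO3 and 0.95 (SE 0.48, adjusted p = 0.546) in AL + NaIO3 against AL + PBS.

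**Figure D2:**
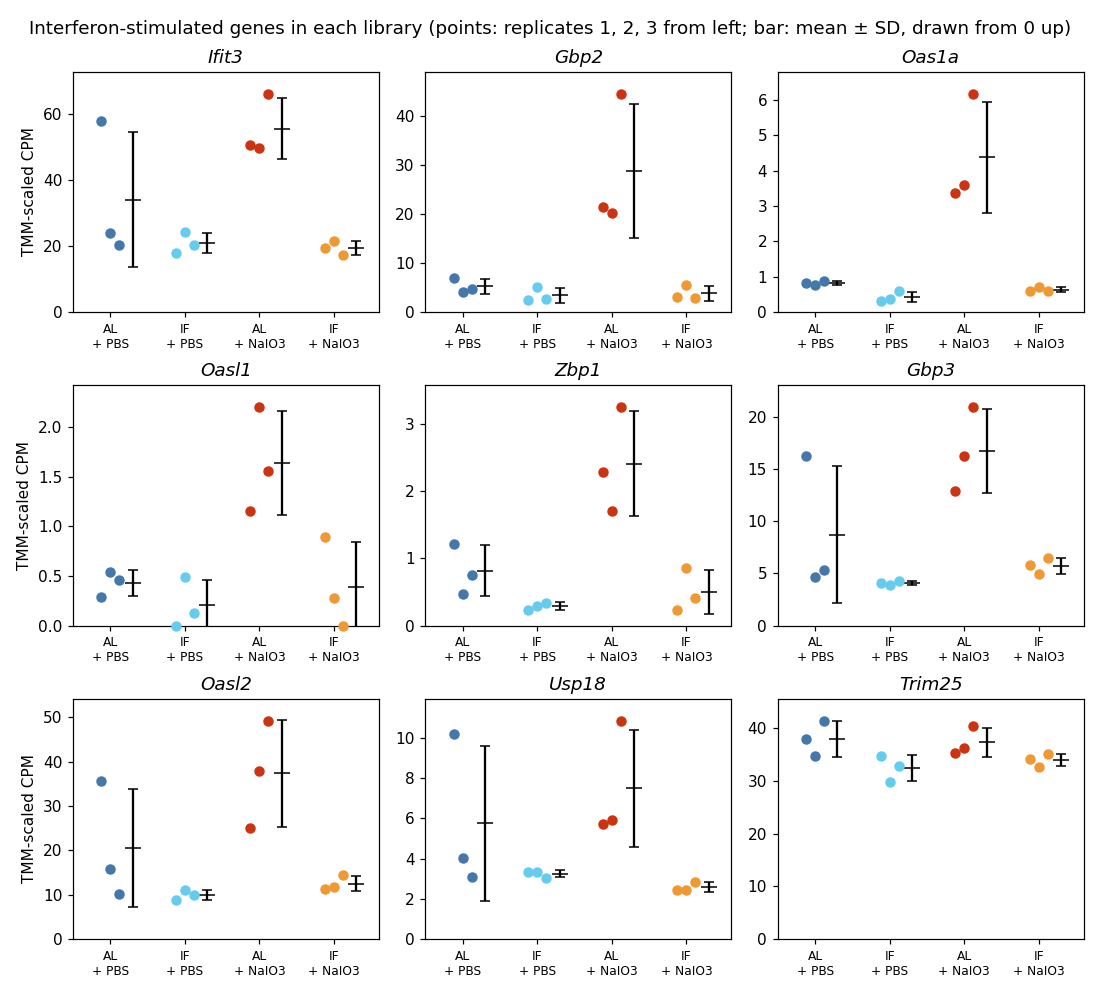
TMM-scaled CPM of 9 interferon-stimulated genes in each library by group, where points are replicates 1 to 3 from left to right and black bars are the mean and SD of 3 libraries. The first AL + PBS point lies at the AL + NaIO3 level for Ifit3, Gbp3, Oasl2 and Usp18 and below every AL + NaIO3 point for Gbp2, Oas1a and Oasl1, and Trim25 lies between 29.9 and 41.4 CPM throughout.

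The sensors were mixed. Ifih1 (MDA5), Ddx58 (RIG-I) and Dhx58 (LGP2) detect viral RNA, Zbp1 detects left-handed nucleic acid and triggers cell death, and Trim25 is a ubiquitin ligase that assists RIG-I. In IF + NaIO3 against AL + NaIO3, 4 of the 5 were lower at an unadjusted p under 0.05. Zbp1 had 2.28, 1.71 and 3.25 CPM in AL + NaIO3, 1.22, 0.472 and 0.753 CPM in AL + PBS, 0.224, 0.293 and 0.341 CPM in IF + PBS, and 0.230, 0.854 and 0.413 CPM in IF + NaIO3. Its AL + NaIO3 values were above those of all other libraries, and its log2 fold change in IF + NaIO3 against AL + NaIO3 was -2.27 (SE 0.58, 4.82-fold lower, adjusted p = 0.239).

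Trim25 did not follow the others. It had 35.2, 36.3 and 40.3 CPM in AL + NaIO3, 34.2, 32.7 and 35.03 CPM in IF + NaIO3, 37.98, 34.6 and 41.4 CPM in AL + PBS, and 34.7, 29.9 and 32.9 CPM in IF + PBS. Its log2 fold change of -0.021 (SE 0.13) in AL + NaIO3 against AL + PBS changed sign with the scaling (0.011 with upper-quartile scaling and 0.061 with library totals). Stat2 was alike, at 0.21 (SE 0.19) in that comparison and -0.061 (SE 0.14) in IF + NaIO3 against AL + NaIO3.

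Stat2 encodes a subunit of the complex that binds the ISRE, and Irf9 its DNA-binding partner. The 4 transcription factors had the smallest changes of the groups by role, with a median log2 fold change of -0.69 in IF + NaIO3 against AL + NaIO3. Irf1, the factor of the interferon gamma branch, had 13.8, 15.0 and 22.1 CPM in AL + NaIO3 and between 6.17 and 8.25 CPM in the 9 other libraries, the first AL + PBS library included at 6.45 CPM. Its log2 fold change was 1.22 (SE 0.24, adjusted p = 0.183) against AL + PBS and -1.24 (SE 0.25, adjusted p = 0.175) after fasting. Irf7, the amplifier of type I interferon, was the 1 member with its highest AL + NaIO3 value in replicate 1 (30.5, 29.4 and 23.2 CPM). Irf7 overlaps Phrf1 and Irf9 overlaps Rnf31, and it is not stated whether reads were counted by strand, so these levels may hold reads of both genes.

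The 6 membrane and nucleotide effectors include Bst2 (tetherin), the entry blockers Ifitm2 and Ifitm3, and Rsad2 (viperin), which makes a chain-terminating nucleotide. All 6 were lower in IF + NaIO3 than in AL + NaIO3 with no overlap, and 5 were higher in AL + NaIO3 than in AL + PBS with no overlap. Ifitm3 had 23.0, 23.3 and 49.2 CPM in AL + NaIO3 and 11.2, 9.09 and 7.41 CPM in IF + NaIO3, and per length it was the most abundant of the 41 in AL + NaIO3, with a mean of 41.6 FPKM. The 9 other members, among them Ifi27, Ifi44, Rtp4, the Parp9 and Dtx3l pair that share a promoter region, and Lgals3bp, were all lower in IF + NaIO3 with no overlap, at log2 fold changes between -2.10 and -1.18. Parp9 and Dtx3l overlap in the annotation, as do Rtp4 and Masp1, and Ifitm2 and Gm45717, so their reads may be shared. Lgals3bp, a secreted scavenger protein, had 29.5, 33.0 and 96.8 CPM in AL + NaIO3, and Ifitm2 had 10.2, 10.9 and 33.5 CPM, so that replicate 3 stood well above the other two for both.

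**Figure D3:**
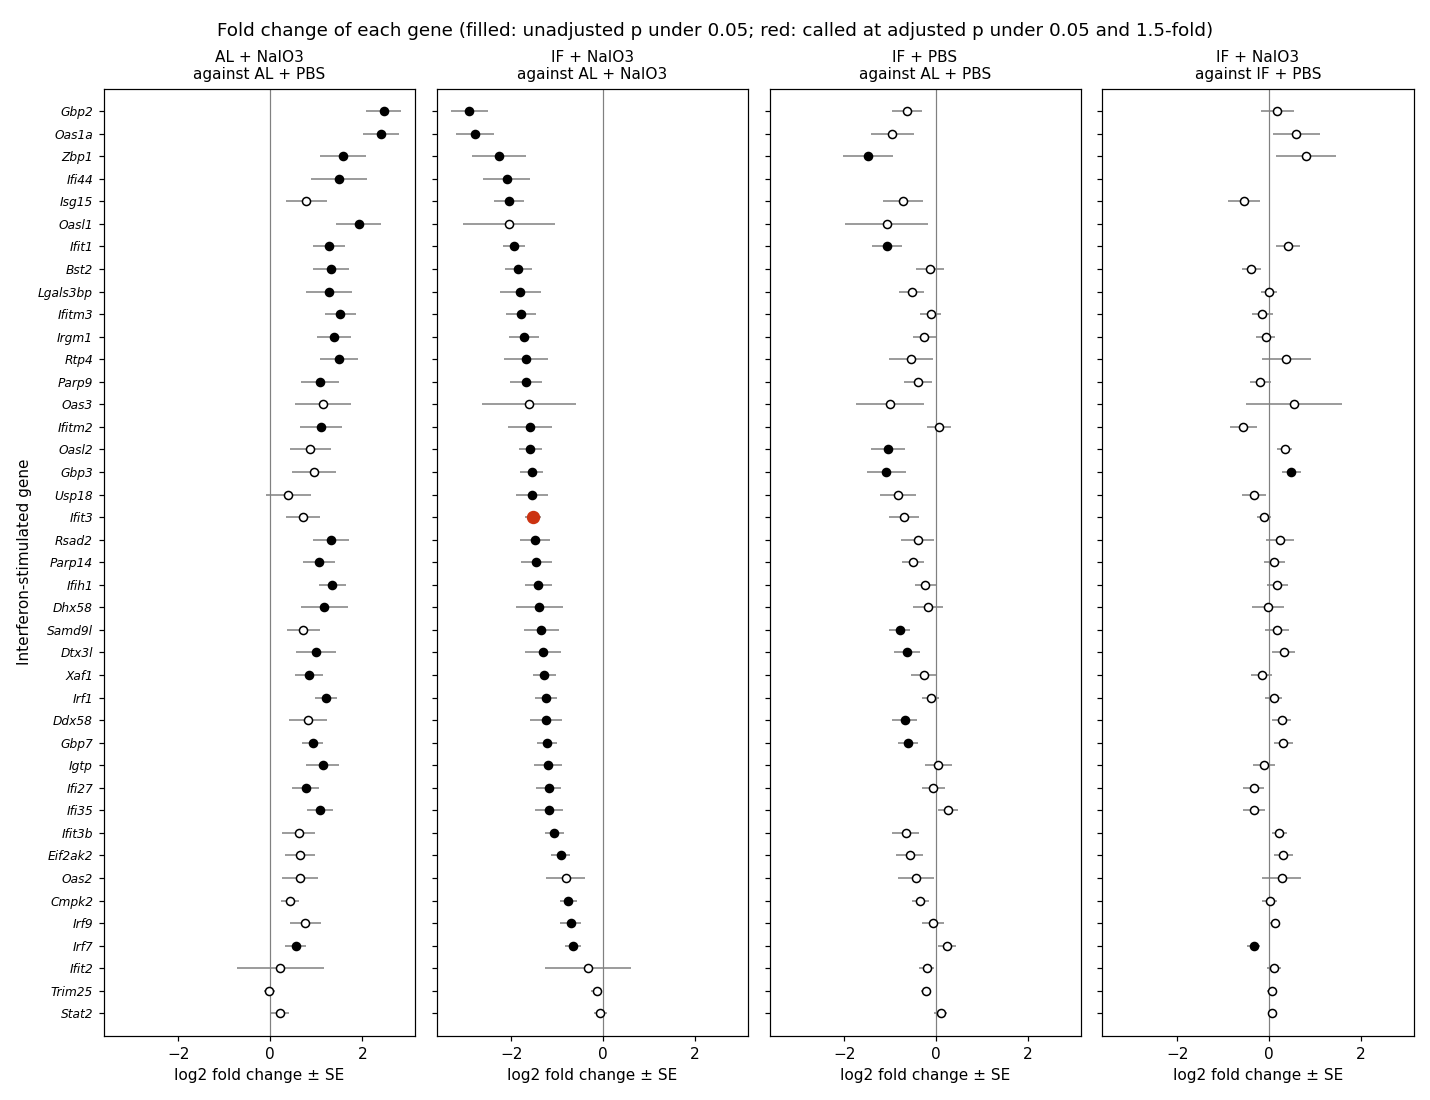
Log2 fold change with its standard error for each of the 41 genes (rows) in the 4 comparisons (panels), from edgeR, where filled points have an unadjusted p under 0.05, the red point is called, and genes removed as too low have no point. Points lie right of 0 for 40 genes in AL + NaIO3 against AL + PBS and left of 0 for all 41 in IF + NaIO3 against AL + NaIO3, and they scatter around 0 in IF + NaIO3 against IF + PBS.

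AL + NaIO3 replicate 3 was the highest library of its group for 36 of the 41 genes (87.8%), as it was for 40.4% of all tested genes. Without it, the median log2 fold change was 0.66 in AL + NaIO3 against AL + PBS and -1.12 in IF + NaIO3 against AL + NaIO3. In the second comparison the number of genes called then went from 1 to 11, all lower, where 0.476% of all tested genes were called. Ifit3 was among the 11, together with Ifit1, Isg15, Oas1a, Oasl2, Bst2, Ifitm3, Gbp2, Gbp3, Irgm1 and Lgals3bp.

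The control group was not uniform for these genes. Within AL + PBS, the median SD of log2 CPM was 0.51 over the 41 genes and 0.14 over 15970 genes, and 39 of the 41 had a larger SD than the median gene. In IF + PBS the same medians were 0.22 and 0.19, in IF + NaIO3 0.22 and 0.16, and in AL + NaIO3 0.45 and 0.31. Replicate 1 was the highest of the 3 AL + PBS libraries for 35 of the 41 genes (85.4%), against 35.2% of all tested genes. AL + PBS replicate 1 was at least 1.5 times the mean of the other two libraries for 28 genes (68.3%), as it was for 5.47% of all genes, with a median ratio of 1.67 and a range from 0.576 for Oasl1 to 3.27 for Gbp3. It also lay above all 6 libraries of fasted mice for 37 genes (90.2%), as it did for 13.1% of all tested genes.

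A summary level was computed for each library as the median over the 41 genes of log2 CPM minus the gene's mean over the 12 libraries. It was 0.44 in AL + PBS replicate 1 and -0.38 and -0.26 in replicates 2 and 3. In AL + NaIO3 it was 0.57, 0.83 and 1.48. The first AL + PBS library was thus nearer to the lowest AL + NaIO3 library than to the other AL + PBS libraries. The fasted groups lay between -0.59 and -0.28 after PBS and between -0.36 and -0.30 after NaIO3.

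The genes divided by where AL + PBS replicate 1 fell, a division made after the values were seen and given without a test. For 15 genes it was at least 1.5 times the other two libraries and at or above the lowest AL + NaIO3 library (36.6%, against 4.75% of all tested genes). Without the condition on the ratio, it lay above the lowest AL + NaIO3 library for 21 of the 41 genes (51.2%), against 77.7% of all tested genes. The 15 genes were Ifit3, Ifit3b, Isg15, Usp18, Irf7, Irf9, Oasl2, Eif2ak2, Ddx58, Dhx58, Gbp3, Xaf1, Parp9, Dtx3l and Lgals3bp. Usp18, which removes ISG15 from proteins and restrains the type I receptor, had 10.2, 4.04 and 3.08 CPM in AL + PBS, 5.71, 5.93 and 10.9 CPM in AL + NaIO3, 3.33, 3.35 and 3.04 CPM in IF + PBS and 2.42, 2.45 and 2.86 CPM in IF + NaIO3. Its first AL + PBS value therefore exceeded those of AL + NaIO3 replicates 1 and 2.

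For 13 genes, including Ifit1, Bst2, Rsad2, Zbp1, Gbp2, Gbp7, Irgm1 and Ifitm3, the first AL + PBS library was at least 1.5 times the others but below every AL + NaIO3 library. For the remaining 13, including Irf1, Oas1a, Oasl1, Ifih1, Ifitm2, Samd9l, Stat2 and Trim25, it was less than 1.5 times the other two. Of the groups by role, the IFIT and ISG15 group had the highest median ratio in that library, at 2.49, with 5 of 6 genes at 1.5 times or more, while the GTPases reached that ratio in 5 of 5 genes and the group of other members in 8 of 9. The effectors of the membrane and nucleotide group reached that ratio in 3 of 6 genes, and none of them reached the AL + NaIO3 range at that ratio. Among genes with a promoter window, the ISRE core was found in 6 of 12 genes of the first set, 9 of 10 of the second and 7 of 11 of the third, and the GAS in 1, 5 and 3.

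**Figure D4:**
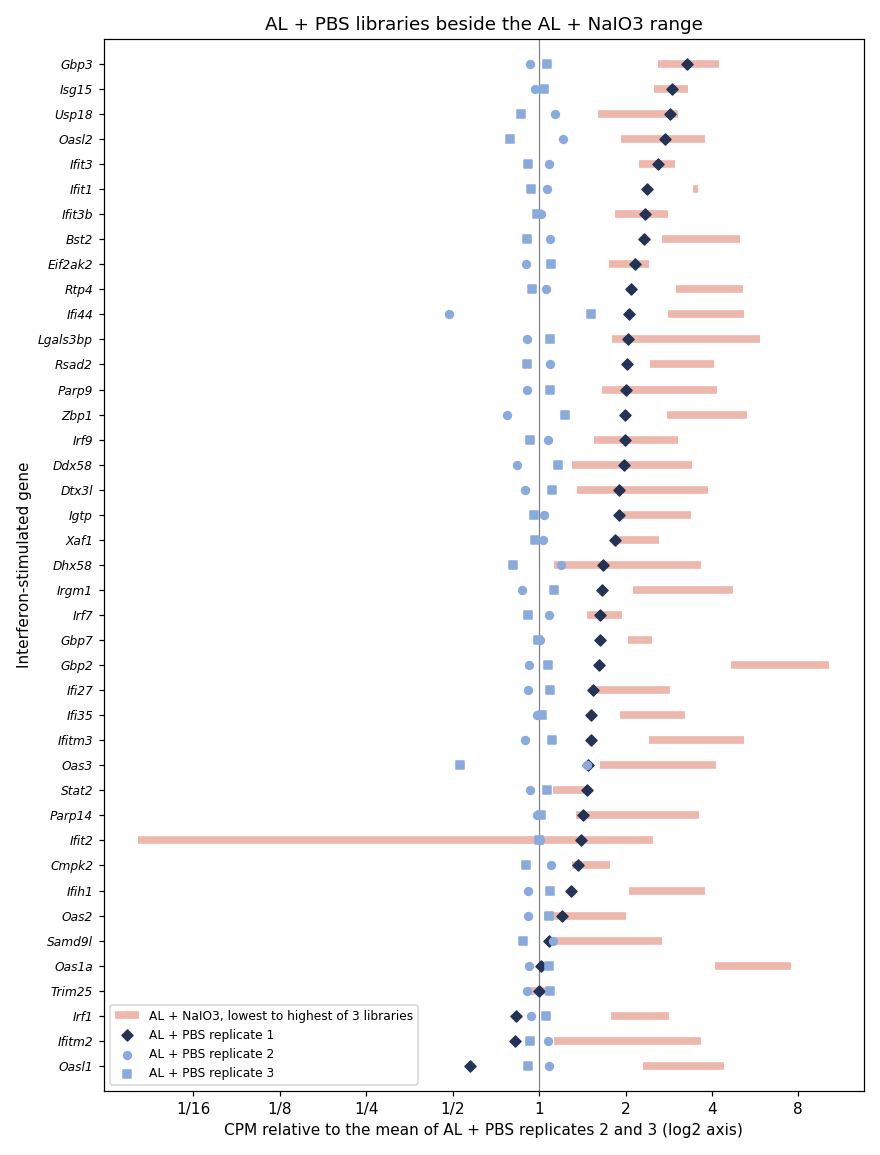
CPM of the 41 genes in the 3 AL + PBS libraries (points) and the range of the 3 AL + NaIO3 libraries (bars), each relative to the mean of AL + PBS replicates 2 and 3 on a log2 axis, with genes ordered by AL + PBS replicate 1. The dark diamonds of replicate 1 run from 3.27 for Gbp3 to 0.576 for Oasl1 and lie inside the bars mostly in the upper part, while the bars of Gbp2, Oas1a and Irf1 lie clear of all 3 AL + PBS points.

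Replicates 2 and 3 of AL + PBS were both below every AL + NaIO3 library for 37 of the 41 genes (90.2%), as they were for 12.98% of all tested genes. All 3 AL + NaIO3 libraries exceeded the 9 other libraries for 19 genes (46.3%), against 4.49% of all tested genes. Leaving out AL + PBS replicate 1 raised the median log2 fold change in AL + NaIO3 against AL + PBS from 1.06 to 1.34 and the number of genes with an unadjusted p under 0.05 from 25 to 34, with 0 called. That number was 14 without AL + PBS replicate 2, 14 without AL + PBS replicate 3 and 18 without AL + NaIO3 replicate 3, and the median was then 0.87, 0.89 and 0.66. In a fit of the other 11 libraries together, chosen after the data had been seen, 4 genes were called as higher (Ifit1, Ifit3, Bst2 and Gbp3), where 0.166% of all tested genes were called, compared with Irf1, Oas1a, Ifih1, Ifitm3, Gbp2 and Irgm1 when all 12 were fitted. The 2 sets share no gene.

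The third comparison asked what fasting did in mice given PBS. In IF + PBS against AL + PBS, 35 of 40 tested genes had a lower mean, with a median log2 fold change of -0.47, and 0 were called in edgeR, where 0% of all tested genes were called. At an unadjusted p under 0.05, 8 genes were lower and 0 higher, against 8.85% of all tested genes that were lower, and the groups did not overlap for 6 genes, all lower, against 11.6% of all genes. DESeq2 called Ifit1 alone, where it called 1.25% of all genes. Of the 40 genes tested, Zbp1 had the lowest log2 fold change, at -1.48 (SE 0.55, adjusted p = 0.238). Ifi44, too low for this fit, had 0.802, 0.189 and 0.590 CPM in AL + PBS and 0.256, 0.195 and 0 CPM in IF + PBS, with overlap (exact two-sided permutation test, p = 0.3). The median of this comparison rested on AL + PBS replicate 1, although the 6 genes without overlap were lower than each AL + PBS library. Without replicate 1, the median log2 fold change was -0.11, with 2 genes lower and 3 higher at an unadjusted p under 0.05. In the other direction, 16 genes were lower without AL + PBS replicate 2 and 13 without AL + PBS replicate 3. Tissue markers differed too. Stroma markers summed to 72.6 to 118 CPM in IF + PBS against 137 to 210 CPM in AL + PBS. Skeletal muscle markers summed to 17.8 to 85.4 against 114 to 249 CPM, and cornea and conjunctiva markers to 5.98 to 15.0 against 25.8 to 53.8 CPM. The sum of the 10 RPE markers was higher, at 2157 to 2659 against 1933 to 2113 CPM. The markers did not rise as a set, since 5 were higher and 5 lower in mean, 3 and 1 of them at an unadjusted p under 0.05. Microglia and macrophage markers overlapped. The part of all these tissue markers was not tested.

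The fourth comparison asked what sodium iodate did in fasted mice. In IF + NaIO3 against IF + PBS, 25 of 39 tested genes had a higher mean and 14 a lower one, with a median log2 fold change of 0.10 and a range from -0.56 to 0.80. In edgeR 0 genes were called, where 0% of all tested genes were called, and at an unadjusted p under 0.05 Gbp3 was higher (0.48, SE 0.21) and Irf7 lower (-0.34, SE 0.13), against 8.47% of all tested genes that were higher and 6.72% that were lower. DESeq2 called 0 of the 39, where it called 0.47% of all genes. Ifi44 and Oasl1 were too low for this fit. Ifi44 had 0.288, 0.358 and 0.379 CPM in IF + NaIO3 against 0.256, 0.195 and 0 CPM in IF + PBS, without overlap (exact two-sided permutation test, p = 0.1, the smallest that 3 against 3 allows), and Oasl1 overlapped (p = 0.8).

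The difference between the diets was tested directly as an interaction of diet and injection over the 12 libraries. Its log2 value was negative for 40 of 41 genes, with a median of -0.88, which means that the injection effect was smaller in fasted mice. At an unadjusted p under 0.05, 17 genes were negative and 0 positive, against 6.88% of all tested genes that were negative. The smallest adjusted p was 0.215, for Gbp2 at -2.27 (SE 0.55), so 0 of 41 genes were called in edgeR, where 0.0313% of all tested genes were called. DESeq2 called 5 (Irf1, Bst2, Ifi35, Ifitm3 and Gbp2), where it called 1.36% of all genes, and edgeR without AL + NaIO3 replicate 1 called 3 (Irf1, Ifitm3 and Gbp2), where it called 2.26%. Without AL + PBS replicate 1 the median was -1.27 and 29 genes had an unadjusted p under 0.05, with 0 called. Without AL + NaIO3 replicate 3 the median was -0.67 with 13 such genes, and without AL + PBS replicate 2 or 3 it was -0.81 or -0.71 with 12 such genes each, again with 0 called.

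The interferons themselves were near the limit of detection. Of 21 ligand genes in the table, none passed the filter on low counts. Ifnb1 had 4, 0 and 3 counts in AL + NaIO3 and 0 in the 9 other libraries. Ifng had 6, 0 and 0 counts in AL + NaIO3, 2 counts in IF + NaIO3 replicate 3 and 0 elsewhere. Both ligands were at 0 counts in AL + PBS replicate 1, which allows up to 0.0962 CPM there, so a low level was not detectable at this depth.

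No gene of the other interferon lists was called in edgeR in any of the 4 comparisons or the interaction with all libraries. The counts that follow stand beside the 8.22% of all tested genes that were lower in IF + NaIO3 than in AL + NaIO3 at an unadjusted p under 0.05. Of the 9 receptors and Janus kinases, 1 was lower at an unadjusted p under 0.05 in IF + NaIO3 against AL + NaIO3, a share near that of all genes, namely Ifnlr1, the type III interferon receptor. It had 1.16, 1.88 and 3.04 CPM in AL + NaIO3, 0.518, 0.248 and 0.655 CPM in IF + NaIO3, 1.15, 0.425 and 0.590 CPM in AL + PBS and 0.192, 0.684 and 0.372 CPM in IF + PBS. In IF + NaIO3 against AL + NaIO3 the log2 fold change was -2.11 (SE 0.58, adjusted p = 0.267), and -1.69 without AL + NaIO3 replicate 3. Of the 8 other signal transducers and regulatory factors, 3 were lower and 1 higher. Irf8, a factor of macrophages and microglia, had 7.32, 10.6 and 20.6 CPM in AL + NaIO3 against 1.78, 1.76 and 4.06 CPM in IF + NaIO3, 3.08, 2.20 and 2.85 CPM in AL + PBS and 3.65, 3.91 and 3.998 CPM in IF + PBS. The AL + NaIO3 libraries were above all others, at a log2 fold change in IF + NaIO3 against AL + NaIO3 of -2.35 (SE 0.50, adjusted p = 0.191), and -1.83 without replicate 3.

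Of 11 tested genes of nucleic acid sensing, 5 were lower in IF + NaIO3 than in AL + NaIO3 at an unadjusted p under 0.05, and Tlr7, the endosomal receptor for single-stranded RNA, had the largest difference. It had 0.706, 1.74 and 5.05 CPM in AL + NaIO3, 0.0863, 0.358 and 0.344 CPM in IF + NaIO3, 0.0642, 0.165 and 0.393 CPM in AL + PBS and 0.384, 0.130 and 0.372 CPM in IF + PBS. The log2 fold change was -3.25 (SE 0.86, adjusted p = 0.251) and -2.21 without AL + NaIO3 replicate 3 (adjusted p = 0.388). Of 11 brakes on interferon signalling, 3 were lower. Socs3, the inhibitor of cytokine receptors that signal through STAT3, had 16.7, 20.0 and 53.2 CPM in AL + NaIO3 and 6.07, 3.99 and 5.58 CPM in IF + NaIO3, 3.91, 5.36 and 5.37 CPM in AL + PBS and 4.80, 3.87 and 5.76 CPM in IF + PBS. Its log2 fold change was -2.53 (SE 0.45, adjusted p = 0.145), and without AL + NaIO3 replicate 3 it was -1.83 and passed the threshold (adjusted p = 0.0133).

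A further 48 interferon-induced genes outside the 41 were in the table. In AL + NaIO3 against AL + PBS all 47 tested were higher in mean, 34 at an unadjusted p under 0.05 (against 7.51% of all tested genes), with a median log2 fold change of 1.53. In IF + NaIO3 against AL + NaIO3 all 46 tested were lower in mean, 36 at that level, with a median of -1.65, against 8.22% of all tested genes at that level. The filter on low counts kept only 41 of the 48 in IF + PBS against AL + PBS and 42 in IF + NaIO3 against IF + PBS. Some of these genes thus passed it only where AL + NaIO3 was included, which favours a high value there. Their counts are a description and not separate support. The lowest fitted value was that of Cxcl9, a chemokine that draws T cells, which had 34, 10 and 12 counts in AL + NaIO3 and 0, 0 and 2 counts in IF + NaIO3, 0, 7 and 8 in AL + PBS and 5, 4 and 5 in IF + PBS. Its IF + NaIO3 counts are under the floor of 3, so no fold is given. In AL + PBS replicate 1, 9 of the 32 of these genes with a mean of at least 1 CPM in that group were at 1.5 times the other two libraries or more, against 5.47% of all tested genes, and the median ratio of the 32 was 1.22. The highest ratios of those 32 were those of Gbp10 (6.13, 1.13 and 0.229 CPM) and Gbp6 (26.5, 10.6 and 8.35 CPM), GTPases of another cluster and near-identical copies whose reads could be divided between them. The chemokine Cxcl10, named for its contrast with these, had 0, 0.850 and 0.0983 CPM in AL + PBS against 9.57, 3.84 and 5.13 CPM in AL + NaIO3.

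Several sets of markers of other cells, but not all, moved with the AL + NaIO3 values. The 12 microglia and macrophage markers summed to between 153 and 424 CPM in AL + NaIO3, and to between 65.8 and 73.6 CPM in AL + PBS, 58.5 and 76.9 CPM in IF + PBS and 60.6 and 80.0 CPM in IF + NaIO3. Of the 12, 11 were higher in AL + NaIO3 than in AL + PBS and 11 lower in IF + NaIO3 than in AL + NaIO3 at an unadjusted p under 0.05. The 10 T and NK lymphocyte markers summed to between 4.49 and 12.2 CPM in AL + NaIO3 and to at most 1.80 CPM elsewhere, and 7 of the 10, Cd3e and Gzmb included, were at 0 counts in every IF + NaIO3 library, as 5 of the 10, Gzmb included, were in every AL + PBS library. The 5 dendritic cell markers summed to 5.81, 5.47 and 26.5 CPM in AL + NaIO3 and to between 3.56 and 4.93 CPM elsewhere. The 7 endothelial markers summed to 229, 230.2 and 462 CPM in AL + NaIO3 and to between 161 and 204 CPM elsewhere. Gfap, a gene of activated glia that was named after its values were seen, had 112, 97.1 and 308 CPM in AL + NaIO3 and between 10.7 and 23.0 CPM elsewhere. The 5 Muller glia and astrocyte markers, Gfap among them, did not rise as a sum. They summed to 2857, 2809 and 3349 CPM in AL + NaIO3 and to between 2619 and 3400 CPM elsewhere. Against AL + PBS, 2 of the 5 were higher and 0 lower in AL + NaIO3 at an unadjusted p under 0.05. Photoreceptor markers also varied within AL + NaIO3, at 59248, 34800 and 18557 CPM in replicates 1 to 3. RPE markers summed to 1012 to 1756 CPM in AL + NaIO3 against 1933 to 2113 CPM in AL + PBS, with 4 of the 10 higher and 6 lower in mean. Plasmacytoid dendritic cell markers overlapped, at 478 to 606 against 535 to 565 CPM, as did neutrophil markers, at 0.899 to 0.994 against 0.567 to 0.962 CPM. The part of these cells in the levels of the interferon-stimulated genes was not tested.

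AL + PBS replicate 1 did not share these differences for the immune markers. The microglia and macrophage markers summed to 65.8 CPM there, the lowest of the 3 AL + PBS libraries, and the T and NK lymphocyte markers to 1.12 CPM, between the other two. Choroid and sclera stroma markers were at 137 CPM, below the other AL + PBS libraries at 208 and 210 CPM. Skeletal muscle markers were the highest of the group at 249 CPM against 114 and 196 CPM, and photoreceptor markers at 54874 CPM against 51757 and 51843 CPM, and their part was not tested. Its total of 31577848 counts lay between those of the other two.

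**Figure D5:**
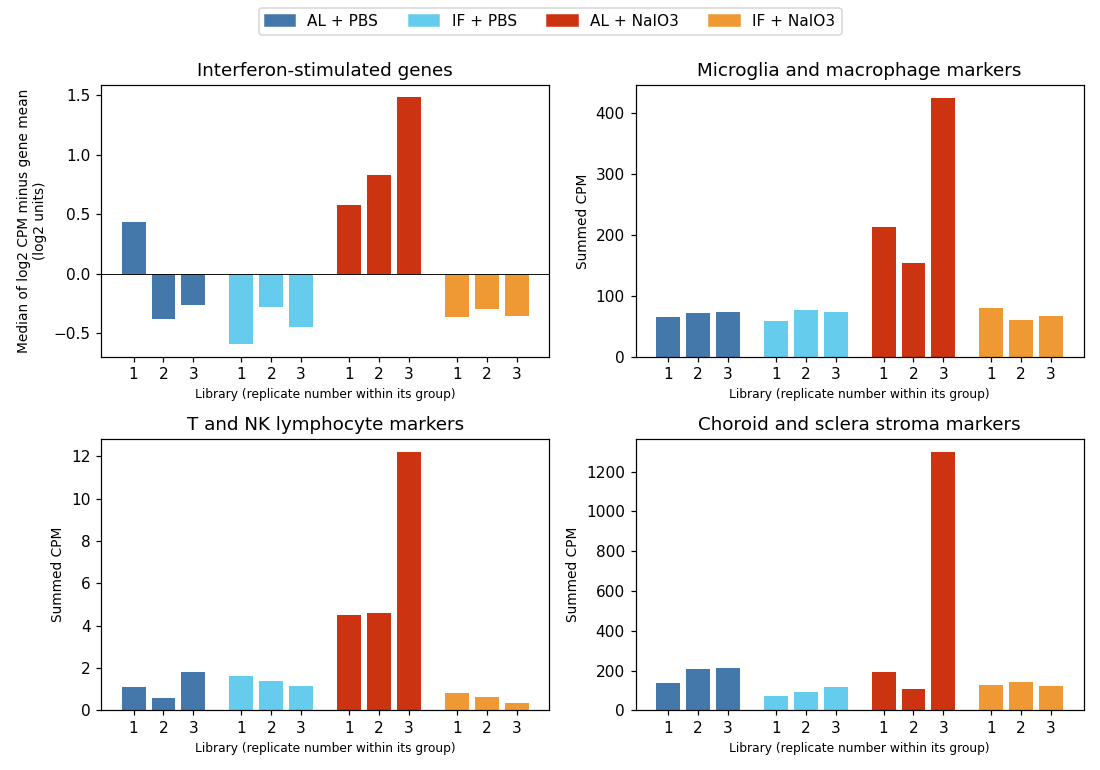
Summary level of the 41 interferon-stimulated genes in each library (top left, log2 units, 0 is the mean over libraries of each gene) beside the summed CPM of 12 microglia and macrophage, 10 T and NK lymphocyte and 6 stroma markers, with bars grouped and coloured by group. AL + PBS replicate 1 has a positive gene level of 0.44 with marker sums at the level of the other PBS libraries, and AL + NaIO3 replicate 3 is the highest in all 4 panels.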

How the data were processed

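RNA of 12 samples, 3 per group, had been sequenced by the authors after poly-A selection, and the submitters' processing notes name HISAT2, StringTie, edgeR, DESeq2 and GRCm39 without versions. The deposited counts are whole reads per gene, not normalized. FPKM is scaled by gene length and library size, but the deposited values did not keep a fixed ratio to the counts for every gene. Ifit2 had 19.8 CPM and 4.04 FPKM in AL + NaIO3 replicate 1, and 0.568 CPM and 0.705 FPKM in replicate 2. The table's coordinates overlapped RefSeq GRCm38.p6 for 99.99% of matched genes and GRCm39 for 17.36%, so they are given as GRCm38. The authors' own table of fold changes and p-values was not used. Whether reads were counted by strand is not given in the sources used here.

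Counts were tested in R 4.3.3 with edgeR 4.0.16 (TMM factors, filterByExpr, quasi-likelihood test, Benjamini-Hochberg adjustment over all genes tested) on the 6 libraries compared, or on 12 for the interaction, after a check of the fits on simulated data. Calls needed an adjusted p below 0.05 together with a 1.5-fold difference or more, and an interaction at an adjusted p under 0.05. Log2 CPM used a prior count of 2. The members, the lists and the tests were chosen with earlier results of these data known. All members may be named. Values in every library are given for called members, the 3 largest rises and falls in both NaIO3 comparisons and the 3 widest AL + PBS spreads at 1 CPM or more, and from other lists for the largest change. Ifit1, Isg15, Irf1, Ifitm3, Lgals3bp, Ifit2, Irf7, Gbp6, Gbp10 and Cxcl10 were named after their values were seen. Alternatives were DESeq2 1.42.0, other scalings and filters, a replicate block and leaving out each library. The study gives a sample size of 3 for RNA-seq and describes RNA of both eye cups of a mouse for its qPCR, but the labels name no mice, so p-values measure the spread between these libraries, which may be in part technical. Depth limits genes near 3 counts.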

Additional observations from a re-analysis of the deposited data

How the results depend on the processing

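With 3 libraries per group, the number of called genes depended on the test more than the direction did. In AL + NaIO3 against AL + PBS, 0 genes were called at first, 13 with DESeq2, 6 with 12 libraries fitted together, 4 in that fit without AL + PBS replicate 1 and 3 without AL + NaIO3 replicate 3 (0.789% of all genes, both chosen after seeing the data), and between 0 and 1 when 1 library was left out, the 1 being Gbp2 without AL + NaIO3 replicate 3, where 0.572% of all genes were called. In IF + NaIO3 against AL + NaIO3, 1 was called at first, 33 with DESeq2, 0 with library totals only, 3 with no filter on low genes (0.0867% of all genes), 14 with 12 libraries fitted together, and 19 and 9 in that fit without AL + PBS replicate 1 and AL + NaIO3 replicate 3, where 0.998% and 0.758% of all genes were called. Leaving out 1 library gave between 0 and 11, with a median log2 fold change between -1.66 and -1.12, which was -1.12 also in the fit of 11 libraries without AL + NaIO3 replicate 3. The cause of the difference between tools was not tested. In IF + PBS against AL + PBS, DESeq2 called 1, and the median was between -0.61 and -0.11 when 1 library was left out and -0.12 in the fit of 11 libraries without AL + PBS replicate 1. For the interaction, DESeq2 called 5 and leaving out 1 library gave between 0 and 3. The replicate number as a block gave 0, 4, 0 and 0 called genes in the 4 comparisons and 0 for the interaction, where 0.179% of all genes were called in the second comparison, and deviations of same-numbered libraries correlated between -0.101 and 0.138 over 18 pairs, with 1 pair over 0.1, so the numbers were not taken as pairs. On log2(FPKM + 0.1), the summary level of IF + NaIO3 replicates 2 and 3 was -0.40 and -0.42. Of 519 refits of single genes, 473 kept direction and call, 32 gained the call and 7 lost it (all Ifit3), and 7 near 0 changed sign: Trim25 in AL + NaIO3 against AL + PBS was 0.011 with upper-quartile scaling, 0.061 with library totals, and between -0.088 and 0.044 when 1 library was left out. In IF + NaIO3 against IF + PBS, leaving out 1 library gave Gbp2 between -0.20 and 0.59, and Ifit3 between -0.20 and 0.0096.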
